A study of Mus musculus with 8 samples.

Results

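Guanylate-binding proteins (GBPs) are large GTPases of the dynamin superfamily that cells make in response to interferon. They gather on the membranes of vacuoles that hold pathogens and on bacteria in the cytosol, break these compartments open together with the immunity-related GTPases (IRGs), and promote inflammasome activation. Their genes are classical targets of interferon gamma, which acts through its receptor, the kinases Jak1 and Jak2 and transcription factors such as Irf1, and in liver both hepatocytes and non-parenchymal cells respond to it. The 9 genes described here were taken by symbol: Gbp2, Gbp3, Gbp4, Gbp5, Gbp6, Gbp7, Gbp8, Gbp9 and Gbp10, of 25239 symbols in the count lists. Another 2 GBP symbols, Gbp2b and Gbp11, are in the lists and are given for comparison.

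The RNA came from whole livers of 8 adult male mice of the C57Bl6/J background with both Smo alleles floxed (Smo flox/flox), 4 in each group, and each liver gave 1 bulk RNA-Seq library. All mice ate the CDA-HFD, a choline-deficient, amino acid-defined high-fat diet that produces steatohepatitis, for 6 weeks, and all received an AAV8 vector by tail vein 1 week before sacrifice. In control mice the vector carried luciferase and in Smo-KO mice Cre recombinase, both under the TBG promoter for expression in hepatocytes, so that Cre removes the floxed part of Smo, the signal transducer of the Hedgehog pathway, in hepatocytes and not in other liver cells. The control genotype is labelled WT, although both groups carry the floxed allele. The number of reads on genes ran from 8203299 to 9999732 per liver, with no difference between groups beyond the spread (two-sided exact permutation p = 0.257, n = 4 each). CPM are counts per 1000000 reads on genes, with library sizes scaled by the TMM method, and 3 reads correspond to between 0.297 and 0.366 CPM.

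Smo, the targeted gene, was measured first. It was at 8.17, 8.49, 8.74 and 8.21 CPM across controls 1 to 4 and at 5.67, 3.93, 4.27 and 4.37 CPM across Smo-KO livers 1 to 4. The groups did not overlap (two-sided exact permutation p = 0.0286, the lowest value 4 against 4 can give). In edgeR's quasi-likelihood test the log2 fold change was -0.88 (SE 0.16) and the adjusted p was 0.0957, by the Benjamini-Hochberg method over the 12977 genes that passed the filter on low counts. The libraries had the RNA of liver: Alb, which encodes albumin, was at between 14262 and 17680 CPM in every mouse, and the 8 hepatocyte markers summed to 27396 ± 2315 CPM in control and 26161 ± 752 CPM in Smo-KO livers (SD, n = 4).

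In the GRCm38 mouse genome the GBP genes lie in 2 clusters, positions here being those that GENCODE M21 gives to the symbols. On chromosome 3, on the forward strand, are Gbp5 (chr3:142493978-142522344), Gbp7 (chr3:142530342-142550149), Gbp3 (chr3:142560026-142573209), Gbp2b and Gbp2 (chr3:142620602-142638008). On chromosome 5, on the reverse strand, are Gbp8 (chr5:105014150-105139540), Gbp9 (chr5:105077630-105139539), Gbp4 (chr5:105115767-105139586), Gbp10 (chr5:105215699-105239533), Gbp6 (chr5:105270702-105293698) and Gbp11, which is annotated as a polymorphic pseudogene. All 9 members are annotated as protein coding, and the values are reads counted per symbol. Of the 100-base windows of Gbp6 exons, 44.2% also occur in Gbp10, and the models of Gbp4, Gbp8 and Gbp9 overlap, with about 60 exon bases in common. Reads of these genes may be split between them in ways that the counting options, which are not given in the sources used here, decide.

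The stretch upstream of each chromosome 3 member is shown because interferon-responsive genes are read from elements close to the start of transcription. For the chromosome 5 members no upstream sequence was at hand, and they were not searched. The sequences are the 250 bases before the RefSeq start (GRCm38.p6, forward strand), for Gbp5 at chr3:142496684-142496933, Gbp7 at chr3:142530086-142530335, Gbp3 at chr3:142559794-142560043 (the first of its 2 starts) and Gbp2 at chr3:142620413-142620662. Capitals mark matches to a motif of the interferon-stimulated response element type, GAAANNGAAA (TTTCNNTTTC on the other strand), and to one of the gamma-activated site type, TTCNNNGAA, which reads the same on both strands.
Gbp5: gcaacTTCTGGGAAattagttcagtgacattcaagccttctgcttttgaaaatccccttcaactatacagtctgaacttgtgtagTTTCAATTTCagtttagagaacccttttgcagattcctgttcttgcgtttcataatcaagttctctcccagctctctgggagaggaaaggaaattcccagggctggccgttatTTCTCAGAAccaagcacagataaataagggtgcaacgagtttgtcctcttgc
Gbp7: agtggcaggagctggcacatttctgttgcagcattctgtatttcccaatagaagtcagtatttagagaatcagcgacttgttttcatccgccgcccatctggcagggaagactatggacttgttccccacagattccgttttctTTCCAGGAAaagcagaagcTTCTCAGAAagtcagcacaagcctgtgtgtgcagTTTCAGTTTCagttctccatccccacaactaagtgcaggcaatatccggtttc
Gbp3: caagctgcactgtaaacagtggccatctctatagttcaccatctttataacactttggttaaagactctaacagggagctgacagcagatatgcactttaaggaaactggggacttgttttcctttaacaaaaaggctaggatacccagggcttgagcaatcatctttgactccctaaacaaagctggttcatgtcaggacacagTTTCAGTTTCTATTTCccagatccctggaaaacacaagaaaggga
Gbp2: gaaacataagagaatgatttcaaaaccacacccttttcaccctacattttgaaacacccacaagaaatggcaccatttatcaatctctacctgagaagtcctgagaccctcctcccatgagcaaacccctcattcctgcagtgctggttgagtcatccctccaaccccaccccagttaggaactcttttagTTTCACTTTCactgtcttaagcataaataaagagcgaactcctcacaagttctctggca
Each of these 4 windows held an interferon-element match, as did that of Gbp2b, where 3.46% of the 27025 genes with such windows did. The matches began 165 bases before the start of Gbp5, 53 before that of Gbp7 and 59 before that of Gbp2, and Gbp3 had a pair that overlapped, beginning 45 and 39 bases before it. The window at the second start of Gbp3 held none. RefSeq and GENCODE place some starts differently. The windows of Gbp3 and Gbp2 reach into the gene as GENCODE draws it, and the match of Gbp2 lies inside that gene. The window of Gbp5, with its matches, lies wholly inside the gene. Gbp5 and Gbp7 each also held 2 matches to the gamma-activated site motif, which 8.13% of genes held, and Gbp2, Gbp3 and Gbp2b held none. None of the interferon-element matches overlapped a gamma-activated site match. A match describes letters in this window and is not a measured binding site.

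**Figure D1:**
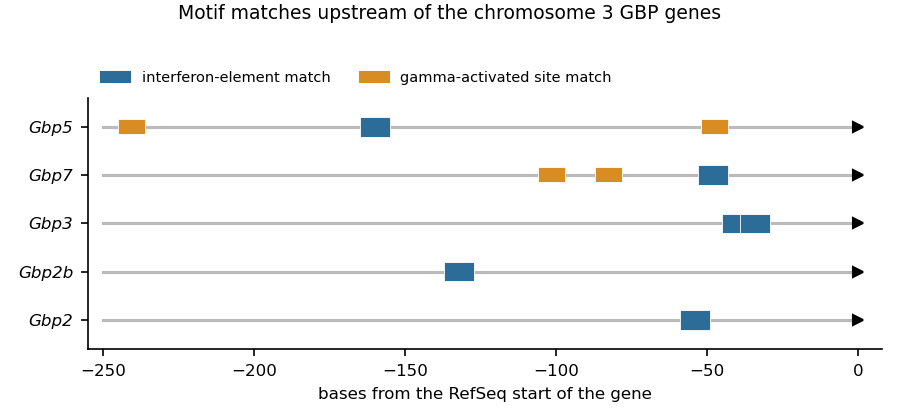
Motif matches in the 250 bases before the RefSeq start of each chromosome 3 GBP gene. The x axis is the distance from the start in bases (arrowhead at 0), blue boxes are matches to the interferon-element motif and orange boxes matches to the gamma-activated site motif; every gene has at least 1 blue box, and Gbp5 and Gbp7 have 2 orange boxes each. For Gbp3 the first start is drawn.

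All 9 GBP genes passed the filter on low counts, and all 9 had a lower mean in Smo-KO than in control livers, at between 49.9% (Gbp6) and 83.0% (Gbp9) of the control mean. None passed the adjusted threshold of 0.05 in edgeR's quasi-likelihood test, where 0 of 12977 genes did (0% of genes; 1797 genes had an unadjusted p under 0.05, and DESeq2's Wald test called 163). At an unadjusted p under 0.05 in edgeR's test, 7 of the 9 members were lower and 0 higher, where 7.15% of all genes tested were lower and 6.70% higher. The two-sided exact permutation p of the CPM was above 0.05 for every member, between 0.0571 (Gbp2 and Gbp4) and 0.314 (Gbp9). The median log2 fold change was -0.74 over the members and -0.000845 over all genes tested. For none of the 9 were the groups free of overlap. This is near the share of all genes, of which 4.34% had every Smo-KO mouse below every control mouse. The RNA is of whole liver, and fewer cells that make GBPs cannot be told apart from less GBP RNA per cell.

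**Figure D2:**
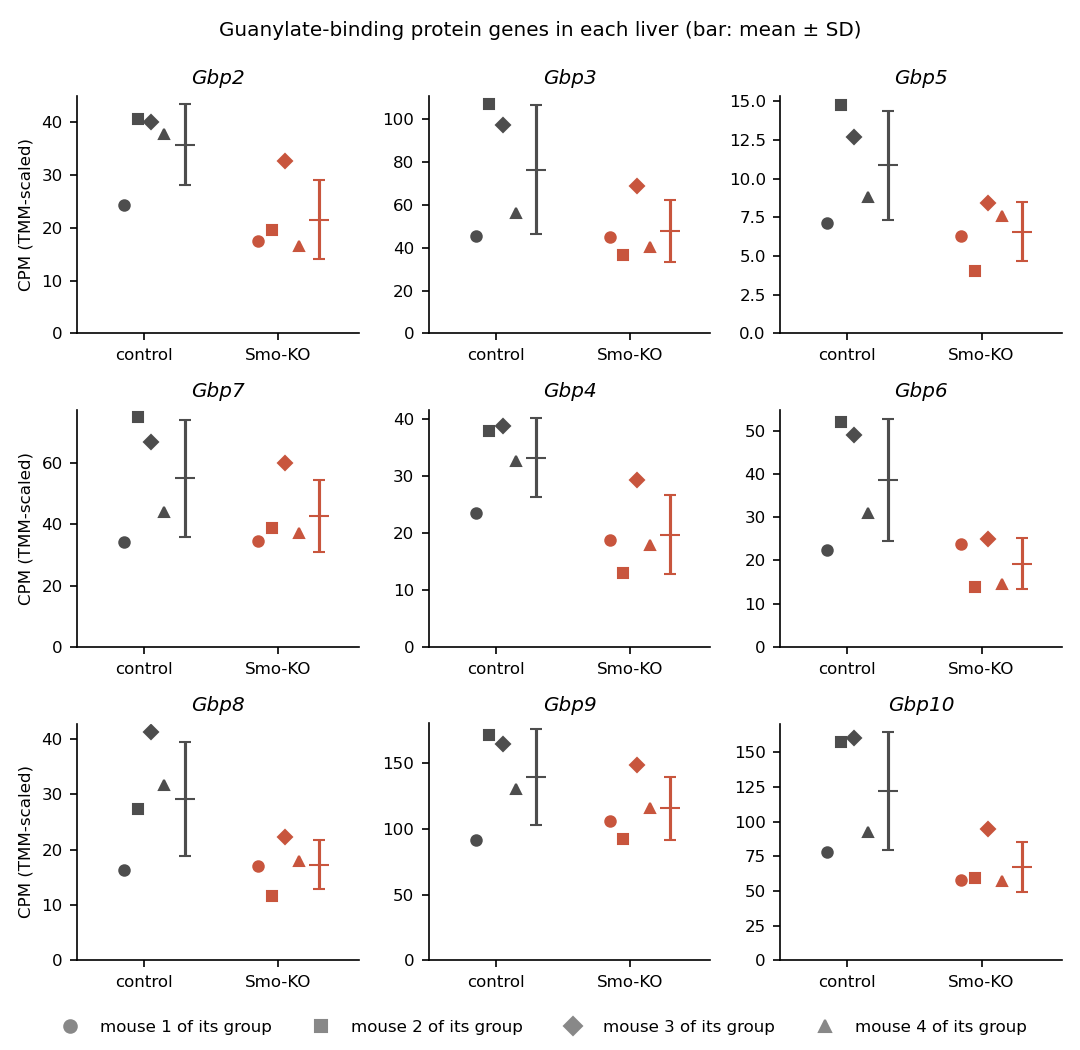
TMM-scaled CPM (y axis, from 0, scale differs by panel) of the 9 GBP genes in 4 control (grey) and 4 Smo-KO (red) livers; symbols number the mice within a group and bars are mean ± SD. In every panel control mouse 1 is the lowest control and Smo-KO mouse 3 the highest Smo-KO liver, and the groups overlap.

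Every overlap between the groups involved control mouse 1 or Smo-KO mouse 3. In control mouse 1 all 9 members were at their lowest among the controls, and in Smo-KO mouse 3 all 9 were at their highest among the Smo-KO livers. The summed level of the 9 genes was 343, 684, 670 and 465 CPM across controls 1 to 4 and 327, 289, 489 and 325 CPM across Smo-KO livers 1 to 4, from between 2654 and 6745 reads. The mean was 541 ± 165 CPM in control and 358 ± 89.4 CPM in Smo-KO livers (SD, n = 4), or 66.1% of the control level. Control mouse 1 stood at 56.6% of the mean of the other 3 controls, below Smo-KO mouse 3. Control mice 2 and 3 had the highest sums of the 8 livers.

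Gbp2 and Gbp5 are, with Gbp2b, the mouse GBPs whose tail is prenylated and so anchors to membranes, and Gbp5 is known for promoting assembly of the NLRP3 inflammasome. Gbp2 was at 24.4, 40.7, 40.0 and 37.8 CPM across controls 1 to 4 and at 17.4, 19.6, 32.6 and 16.5 CPM across Smo-KO livers 1 to 4. Smo-KO mouse 3 lay above control mouse 1, and the other 3 Smo-KO livers lay below every control. The log2 fold change was -0.74 (SE 0.21), and edgeR's test gave an unadjusted p of 0.00407 and an adjusted p of 0.178 (two-sided exact permutation p of the CPM = 0.0571). Gbp5, the scarcest member per length, was at 7.15, 14.8, 12.7 and 8.80 CPM across the controls and at 6.29, 4.04, 8.41 and 7.57 CPM across Smo-KO livers 1 to 4, the lowest control lying within the Smo-KO values. Its log2 fold change was -0.73 (SE 0.25), and the adjusted p was 0.247 in edgeR's test.

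Gbp2b, which stands next to Gbp2 on chromosome 3, was at 39.0, 66.3, 64.8 and 55.1 CPM across controls 1 to 4 and at 27.4, 26.9, 47.2 and 19.7 CPM across Smo-KO livers 1 to 4. Here too only Smo-KO mouse 3 reached the range of the controls. Gbp2b differed by -0.90 on the log2 scale (SE 0.23), and the adjusted p was 0.156 in edgeR's test and 0.0152 in DESeq2's.

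Gbp3 and Gbp7 complete the chromosome 3 cluster, and Gbp7 is known for a part in the oxidative killing of bacteria. Gbp3 was at 45.6, 107, 97.5 and 56.1 CPM across controls 1 to 4 and at 44.8, 36.6, 68.9 and 40.5 CPM across Smo-KO livers 1 to 4. Control mice 2 and 3 were above all Smo-KO livers, and control mice 1 and 4 were not. For Gbp3 the log2 fold change was -0.68 (SE 0.26), with an unadjusted p of 0.0209 and an adjusted p of 0.281 in edgeR's test. With 1 mouse left out, the unadjusted p of Gbp3 was between 0.00322 (without control mouse 1) and 0.0846 (without control mouse 2). In DESeq2's Wald test it was 0.0583. Gbp7 was at 34.1, 75.1, 66.8 and 44.1 CPM across the controls and at 34.4, 38.7, 60.0 and 37.2 CPM across Smo-KO livers 1 to 4, and no Smo-KO liver was below control mouse 1. Its log2 fold change was -0.37 (SE 0.23), with an unadjusted p of 0.132 in edgeR's test. Leaving out each mouse in turn gave between -0.58 and -0.18 for Gbp7, with an unadjusted p between 0.0219 (without Smo-KO mouse 3) and 0.432 (without control mouse 2), and 0.0221 without control mouse 1.

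Gbp6 and Gbp10, the near-copies on chromosome 5, had the most negative fold changes of the 9. Gbp6 was at 22.5, 52.0, 48.9 and 31.0 CPM across controls 1 to 4 and at 23.7, 13.7, 25.0 and 14.5 CPM across Smo-KO livers 1 to 4. Control mouse 1 fell among the Smo-KO livers, and the other 3 controls were above them all. Gbp6 had a log2 fold change of -1.01 (SE 0.26), with an unadjusted p of 0.00206 and an adjusted p of 0.156 in edgeR's test, the smallest of the members. Gbp10 was at 78.1, 158, 160 and 92.9 CPM across the controls and at 58.1, 59.6, 94.4 and 56.9 CPM across Smo-KO livers 1 to 4, with 3 Smo-KO livers below every control. Gbp10 had a log2 fold change of -0.86 (SE 0.23), and the adjusted p was 0.163 in edgeR's test. With the reads of both genes summed into 1 feature, the log2 fold change was -0.90 and the adjusted p 0.155.

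The other chromosome 5 members are Gbp4, Gbp8 and Gbp9, whose models overlap. Gbp4, reported to restrain the transcription factor Irf7, was at 23.6, 37.9, 38.9 and 32.6 CPM across controls 1 to 4 and at 18.8, 13.0, 29.3 and 17.9 CPM across Smo-KO livers 1 to 4. Again 3 Smo-KO livers were below every control, and Smo-KO mouse 3 was not. Its log2 fold change was -0.76 (SE 0.21), and the adjusted p was 0.176 in edgeR's test and 0.0441 in DESeq2's Wald test, where Gbp4 was the 1 member under 0.05 and 0.647% of genes were called lower. Gbp8 was at 16.3, 27.3, 41.2 and 31.6 CPM across the controls and at 17.1, 11.6, 22.3 and 18.0 CPM across Smo-KO livers 1 to 4, with the lowest control inside the Smo-KO range. Gbp8 had a log2 fold change of -0.76 (SE 0.24), and the adjusted p was 0.221 in edgeR's test. Gbp9 was at 91.6, 171, 164 and 130 CPM across the controls and at 106, 92.6, 148 and 116 CPM across Smo-KO livers 1 to 4, so that every Smo-KO liver was above control mouse 1. For Gbp9 the log2 fold change was -0.27 (SE 0.18), with an unadjusted p of 0.166 in edgeR's test. Leaving out each mouse in turn gave between -0.43 (without control mouse 1) and -0.15 (without control mouse 2) for Gbp9. The unadjusted p was 0.0153 and 0.433 in these 2 fits of edgeR's test, the extremes, and 0.0419 without Smo-KO mouse 3.

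Gbp11, the annotated pseudogene, had a higher level per length than any member (between 74.4 and 148 CPM per kilobase of exons in the control livers, where no member was above 41.3). It was at 200, 226, 397 and 253 CPM across controls 1 to 4 and at 204, 218, 291 and 249 CPM across Smo-KO livers 1 to 4. The groups overlapped almost wholly. The log2 fold change was -0.16 (SE 0.19, adjusted p = 0.738 in edgeR's test), and without control mouse 3 it was 0.09.

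Per kilobase of merged exons, the order of the levels in control livers was Gbp10 (31.6 ± 11.1 CPM per kilobase, SD, n = 4), Gbp9 (26.9 ± 7.05), Gbp3 (23.4 ± 9.26), Gbp2 (14.2 ± 3.05), Gbp7 (9.80 ± 3.40), Gbp8 (8.45 ± 3.00), Gbp6 (6.48 ± 2.38), Gbp4 (4.43 ± 0.932) and Gbp5 (1.64 ± 0.528). The ranges of neighbours in this order overlapped over the 4 mice except those of Gbp4 and Gbp5. There the lowest Gbp4 value was 3.15 and the highest Gbp5 value 2.23 CPM per kilobase. In Smo-KO livers Gbp9 (22.4 ± 4.59 CPM per kilobase) was ahead of Gbp10 (17.4 ± 4.68), whose ranges overlapped, and the order was otherwise as in control livers. These ranges run across mice. The members were read in the same livers, and their order within each mouse was not compared.

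**Figure D3:**
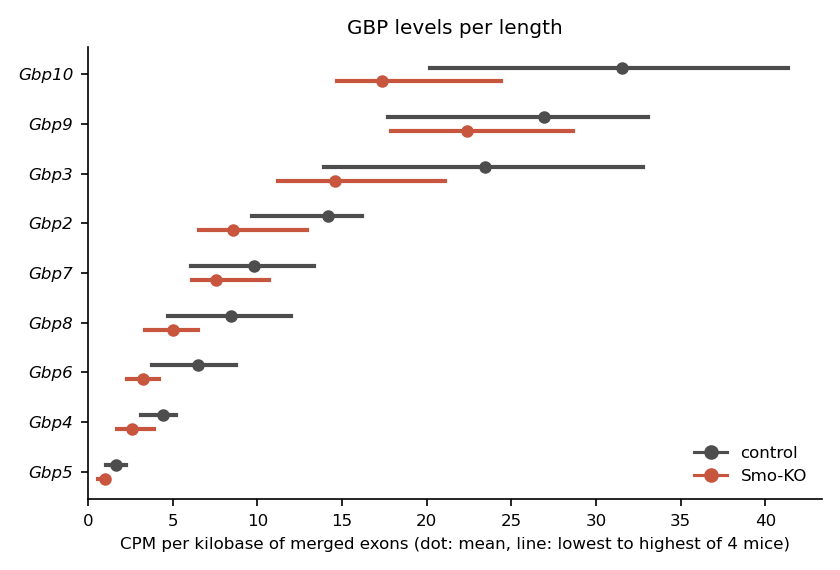
CPM per kilobase of merged exons (x axis) of the 9 GBP genes in control (grey) and Smo-KO (red) livers; dots are means and lines run from the lowest to the highest of 4 mice. Gbp10, Gbp9 and Gbp3 are highest, Gbp5 is lowest, and within each gene the lines of the groups overlap.

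The members followed each other closely from mouse to mouse. Over the 36 pairs of members, Pearson's r of log2 CPM across the 8 livers was between 0.71 (Gbp7 with Gbp8) and 0.97 (Gbp3 with Gbp10), with a median of 0.88, and after each group's mean was taken out the median was 0.84. The median was 0.85 for the 16 pairs on the same chromosome and 0.89 for the 20 pairs on different chromosomes. With group means taken out the order was reversed, at 0.86 and 0.82. These values share libraries and are given as a description. Outside the members, the genes with a mean of at least 5 CPM whose log2 CPM were most like the mean of the 9 were Ifi47 (r = 0.98), Socs1 (0.98), Gm12250 (0.97), Irgm2 (0.97), Tgtp1 (0.97), Fam49a (0.97), Tgtp2 (0.97) and Samhd1 (0.97), of 10777 genes ranked over 8 livers. With group means taken out, r for these 8 was between 0.94 and 0.98. Ifi47, Irgm2, Tgtp1, Tgtp2 and Gm12250, also known as Irgb10, are IRGs, Socs1 is the feedback inhibitor of JAK signalling, and Samhd1 is an interferon-inducible enzyme that degrades deoxynucleotides.

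The IRGs act with the GBPs at the vacuole. Of 8 IRG genes in the list, which does not hold Gm12250, all were tested and 7 were lower at an unadjusted p under 0.05 and 0 higher, against the 7.15% and 6.70% of all genes, with a median log2 fold change of -0.65. In edgeR's test no adjusted p was under 0.05. Their summed level was 863, 1670, 1669 and 1117 CPM across controls 1 to 4 and 728, 857, 1268 and 790 CPM across Smo-KO livers 1 to 4. Control mouse 1 was again the lowest control and Smo-KO mouse 3 the highest Smo-KO liver.

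Among the regulators of the family, Irgm1, Irgm2 and Igtp, which keep the other IRGs inactive on the cell's own membranes, had log2 fold changes of -0.68 (SE 0.23), -0.61 (SE 0.24) and -1.11 (SE 0.23). Igtp was at 165, 285, 306 and 226 CPM across controls 1 to 4 and at 88.1, 98.3, 177 and 92.4 CPM across Smo-KO livers 1 to 4, and its adjusted p was 0.116 in edgeR's test. Only Smo-KO mouse 3 reached the range of the controls. With each mouse left out in turn, the adjusted p of Igtp in edgeR's test was between 0.0201 (without Smo-KO mouse 3) and 0.252. The effectors Tgtp1 and Tgtp2, neighbouring copies whose reads may be shared, had log2 fold changes of -1.28 (SE 0.30) and -1.36 (SE 0.32), and Ifi47 of -0.59 (SE 0.23). The adjusted p of Tgtp2 was 0.140 in edgeR's test and between 0.0413 (without control mouse 1) and 0.282 with 1 mouse left out. Iigp1, the IRG with the highest CPM, did not differ beyond the spread between livers, with a log2 fold change of -0.15 (SE 0.21) that became 0.01 without control mouse 2. Irgq, a GTPase-like relative, was at 28.1, 26.4, 27.1 and 22.6 CPM across the controls and at 18.2, 17.6, 17.8 and 15.8 CPM across Smo-KO livers 1 to 4. Its groups did not overlap, and its log2 fold change was -0.59 (SE 0.11). The adjusted p of Irgq was 0.0957 in edgeR's test, between 0.0464 (without Smo-KO mouse 1) and 0.219 with 1 mouse left out, and 0.00505 in DESeq2's test. Leaving out Smo-KO mouse 1 brought 78 of all genes below 0.05 after adjustment in edgeR's test, against 0 with all 8 mice.

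**Figure D4:**
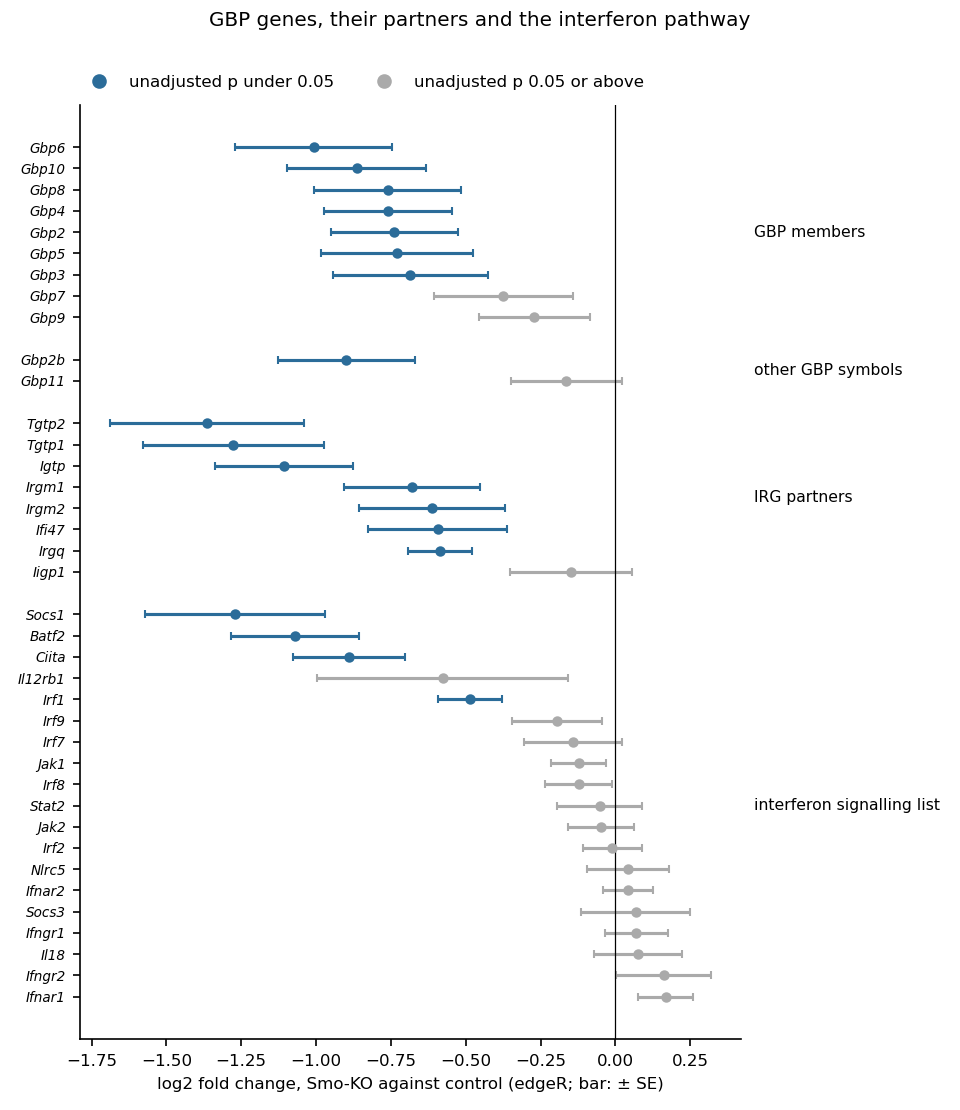
Log2 fold change, Smo-KO against control (x axis, edgeR, bars ± SE), of the 9 GBP members, the other GBP symbols, the IRG partners and genes of the interferon list. Blue marks an unadjusted p under 0.05; 7 of 9 members and 7 of 8 IRGs are blue, all of these below 0.

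The interferon pathway that induces the GBPs was measured from ligand to transcription factor in a list of 25 genes, of which 20 were tested: 5 were lower at an unadjusted p under 0.05 and 0 were higher, where 7.15% of all genes tested were lower and 6.70% higher, and the median log2 fold change was -0.09. Ifng itself was covered by 1, 0, 6 and 5 reads across controls 1 to 4 and 0, 0, 4 and 2 reads across Smo-KO livers 1 to 4, too few for a comparison. The receptor chains Ifngr1 (log2 fold change 0.07, SE 0.11) and Ifngr2 (0.16, SE 0.16) and the kinases Jak1 (-0.12, SE 0.09) and Jak2 (-0.05, SE 0.11) did not differ beyond the spread between livers. Stat2, Irf7, Irf8 (-0.12, SE 0.11), Irf9 and Nlrc5 (0.04, SE 0.14) likewise had unadjusted p-values above 0.05.

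Among the 5 lower genes were Irf1, Batf2, Ciita and Socs1. Irf1, a transcription factor that activates GBP genes, was at 126, 122, 105 and 120 CPM across the controls and at 97.1, 72.2, 90.7 and 77.4 CPM across Smo-KO livers 1 to 4. Here the groups did not overlap, and control mouse 1, lowest of the controls for the GBPs, was the highest. The log2 fold change of Irf1 was -0.49 (SE 0.11), and the adjusted p was 0.132 in edgeR's test, between 0.0470 (without Smo-KO mouse 1) and 0.263 in that test with 1 mouse left out, and 0.0122 in DESeq2's.

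Batf2, a partner of Irf1, and Ciita, the activator of MHC class II genes, also had groups without overlap, with log2 fold changes of -1.07 (SE 0.21) and -0.89 (SE 0.19) and adjusted p-values of 0.116 each in edgeR's test and 0.00508 and 0.00536 in DESeq2's. Socs1 was at 4.65, 11.8, 10.8 and 7.02 CPM across controls 1 to 4 and at 3.71, 2.62, 5.24 and 2.77 CPM across Smo-KO livers 1 to 4, with Smo-KO mouse 3 above control mouse 1. Its log2 fold change was -1.27 (SE 0.30, adjusted p = 0.140 in edgeR's test and 0.00908 in DESeq2's).

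T cells and NK cells are main sources of interferon gamma, and their markers were counted in the same livers. Of 9 T cell markers 7 were lower at an unadjusted p under 0.05 and 1, Themis, was higher, and of 6 NK cell markers tested (of 10 in the list) 4 were lower and 0 higher. Of all genes tested, 7.15% were lower and 6.70% higher. No adjusted p was under 0.05 in edgeR's test. Cd8a was at 11.0, 9.44, 9.54 and 9.50 CPM across controls 1 to 4 and at 5.46, 4.47, 6.22 and 7.04 CPM across Smo-KO livers 1 to 4, groups that did not overlap (log2 fold change -0.77, SE 0.16). Il2rb, a receptor chain of NK and T cells, had a log2 fold change of -1.25 (SE 0.23), and Nkg7, of their cytotoxic granules and the most abundant NK marker, of -0.94 (SE 0.22). Themis, the T cell marker with the highest mean CPM in each group, although Cd8a was above it in control mice 1 and 3, went the other way. The log2 fold change of Themis was 0.96 (SE 0.17), and its adjusted p was 0.0957 in edgeR's test, between 0.0208 (without Smo-KO mouse 1) and 0.210 with 1 mouse left out. DESeq2's test gave 5 markers of these lists an adjusted p under 0.05: Cd3e (0.0399), Cd8a (0.0143), Nkg7 (0.0121) and Il2rb (0.000362), all lower, and Themis (0.000270), higher. At that threshold DESeq2's test called 0.647% of all genes tested lower, and 163 of 12977 genes in either direction.

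The T cell markers without Themis, left out after its values were seen, summed to 47.0, 44.9, 44.3 and 57.0 CPM across controls 1 to 4 and to 24.1, 20.7, 34.5 and 32.1 CPM across Smo-KO livers 1 to 4. With Themis the list summed to 59.5 ± 7.31 CPM in control and 49.7 ± 8.50 CPM in Smo-KO livers (SD, n = 4), and the groups overlapped, with controls at 53.5 to 70.1 CPM and Smo-KO livers at 39.8 to 59.8 CPM. The NK cell markers summed to 35.2, 46.4, 35.5 and 44.3 CPM across the controls and to 21.2, 17.2, 28.0 and 24.4 CPM across Smo-KO livers 1 to 4. Both sums were highest among the Smo-KO livers in mouse 3, as the GBPs were. In control mouse 1, whose summed GBP level was 63.5% of the control mean, the T cell sum without Themis was 97.2% and the NK sum 87.1% of the control mean. No marker of either list was at 0 in every library. The part of these cells in the GBP difference was not tested.

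**Figure D5:**
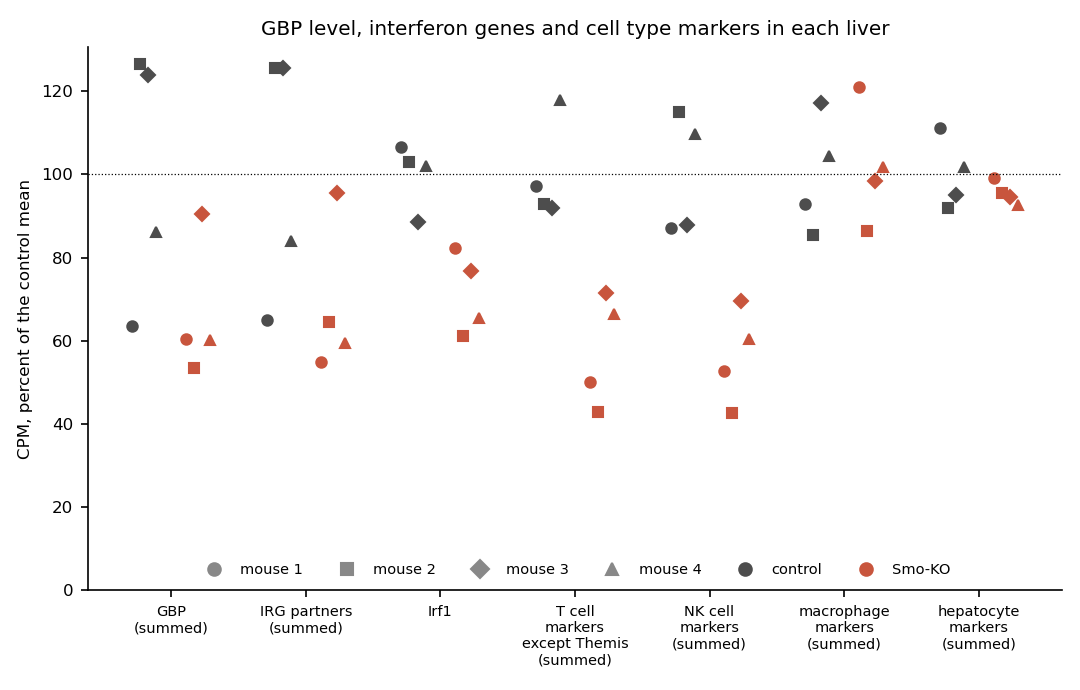
CPM as percent of the control mean (y axis, from 0) in each of 4 control (grey) and 4 Smo-KO (red) livers for the summed GBP genes, the summed IRG genes, Irf1 and summed cell type markers; symbols number the mice within a group. Control mouse 1 lies near the Smo-KO mice for GBPs and IRGs (63.5% and 64.9%) and near the other controls for Irf1 and the T cell markers except Themis (107% and 97.2%), while macrophage and hepatocyte markers overlap between groups. Themis, the T cell marker with the highest mean CPM, was left out after its values were seen, and with it the T cell sums overlap.

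Cre acts in hepatocytes. Of 8 hepatocyte markers, with Alb the most abundant, 1 was lower at an unadjusted p under 0.05 (Cps1, the first enzyme of the urea cycle, log2 fold change -0.33, SE 0.10) and 0 higher, and Tat (-0.62, SE 0.31) had the next smallest p. Tat was at 920, 824, 243 and 562 CPM across Smo-KO livers 1 to 4, and its log2 fold change was between -0.85 and -0.35 with 1 mouse left out. The 12 macrophage and Kupffer cell markers, of which Cd5l was the most abundant, summed to 1966 ± 272 CPM in control and 2004 ± 283 CPM in Smo-KO livers (SD, n = 4). Of these, 0 were lower at an unadjusted p under 0.05 and 1 higher, Trem2 (log2 fold change 0.75, SE 0.13), followed by Gpnmb (0.16, SE 0.10). Both counts are near the 7.15% lower and 6.70% higher of all genes tested. The adjusted p of Trem2 was 0.0957 in edgeR's test, between 0.0200 (without Smo-KO mouse 1) and 0.210 with 1 mouse left out, and 0.000156 in DESeq2's.

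The machinery that brings GBPs to a membrane was counted in the same way. Of 15 genes of ATG8 conjugation and vacuole marking, which mark vacuoles for GBP and IRG loading, 0 were lower at an unadjusted p under 0.05 and 1 was higher, Map1lc3b (log2 fold change 0.20, SE 0.08), and Trim21 was next (-0.32, SE 0.15). None of the 5 prenylation enzymes, which attach the lipid to a protein's tail or process the tail afterwards, had an unadjusted p under 0.05, and those with the smallest p were Pggt1b (-0.42, SE 0.20) and Icmt (-0.09, SE 0.09). Of 11 inflammasome and pyroptosis partners 0 were lower and 1, the flagellin sensor Naip5, was higher (0.40, SE 0.15), followed by Casp4 (0.30, SE 0.23). These counts are near the 7.15% lower and 6.70% higher of all genes tested. The median log2 fold changes of the 3 lists were 0.03, -0.09 and 0.05. No gene of these lists had an adjusted p below 0.05 in edgeR's test.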

How the data were processed

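The RNA of 8 livers, 4 per group, was analysed from the read counts that the authors deposited, whole numbers per gene symbol without normalization. The submitters' processing notes name fastp, STAR 2.7.5, featureCounts 2.0.1 and the build GRCm38. The lists close with summary entries in the form htseq-count writes, so which tool counted is unclear, and the annotation, strand setting and treatment of multimapping reads are not given in the sources used here. Without strand, reads of genes that overlap on opposite strands cannot be told apart. Gbp4, Gbp8 and Gbp9 lie on the same strand, so a strand setting would not separate reads of the bases they share. Entries that name no gene entered neither library sizes nor tests. Reads on no feature were between 7.56% and 9.68% of the counted reads per liver and ambiguous reads between 2.45% and 2.61%. No pair of libraries was a copy (chi-square per degree of freedom between 8.17 and 18.5). Duplicated molecules cannot be recognized, so depth describes counting error only.

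The 9 members, the gene lists (the interferon pathway, IRG partners, ATG8 conjugation, prenylation, inflammasome, and markers of 10 liver cell types) and the tests were chosen with earlier results of these data known. The genes named were the members, Gbp2b, Gbp11, Smo, main interferon gamma pathway genes, every IRG of the list, the 2 genes per list with the smallest p, and the 8 genes most like the members. Ciita, Socs1, Stat2, Irf7 and Irf9, and the most abundant marker of a list, were named after their values were seen. Counts were analysed with edgeR 4.0.16 under R 4.3.3 (low counts removed by filterByExpr, TMM scaling, quasi-likelihood F test on genotype alone, Benjamini-Hochberg adjustment over 12977 genes). Standard errors are those implied by the F statistic, and 2 was the prior count for log2 CPM. Single values were compared by exact permutation over 70 assignments, two-sided. Lists are described by counts and medians, with no test. The result of 1 gene of the interferon list is not reported here, and counts still include it. Positions and exon lengths came from GENCODE M21 and upstream sequences from RefSeq on GRCm38.p6. Upstream sequences were at hand for 4 of the 9 members, those on chromosome 3. Alternatives were other size factors, DESeq2 1.42.0, other filters, omission of each mouse, a block for the replicate number, Gbp6 and Gbp10 summed, unscaled CPM and transcript length. The procedure was tested on simulated data.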

Additional observations from a re-analysis of the deposited data

Results flagged for a closer look

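In a group of 4 mice, a value was singled out when its gap to the nearest of the others, divided by the range of the group, exceeded Dixon's 95% critical value, which chance does in about 1 of 20 groups. Of 124 groups checked, 13 had such a value. Smo-KO mouse 3 accounted for 9 of them: Gbp7 was at 60.0 CPM against 34.4 to 38.7 CPM in the other Smo-KO livers and Gbp10 at 94.4 against 56.9 to 59.6 CPM. In the same liver Irgm1 was at 154 CPM, Irgm2 at 121 CPM, Igtp at 177 CPM, Tgtp1 at 57.9 CPM, Ifi47 at 105 CPM and Gm12250 at 31.0 CPM. The depth of its library was the last of the 9: it was the shallowest, with 8203299 reads on genes, while the other Smo-KO livers had 9367795 to 9543675, and the part of depth was not tested.

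Away from the GBPs and IRGs, Ifngr1 was at 93.1 CPM in control mouse 3 against 76.2 to 77.9 CPM in the other controls. Pggt1b was at 8.51 CPM in Smo-KO mouse 2 against 5.54 to 5.88 CPM. In control mouse 1, Cd8a was at 11.0 CPM against 9.44 to 9.54 CPM and Pax5, of B cells, at 1.93 CPM against 0.944 to 0.994 CPM.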

How the results depend on the processing

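All 9 GBP members kept a lower mean in Smo-KO livers under each of the 13 alternatives fitted across genes. The number of members with an unadjusted p under 0.05 was 7 in edgeR's main analysis, 6 with DESeq2 and between 5 (without control mouse 2) and 9 (without control mouse 1, and without Smo-KO mouse 3) with 1 mouse left out. Over the alternatives 0 members had an adjusted p under 0.05 with edgeR, and 1, Gbp4, did with DESeq2. The number of all genes with an adjusted p under 0.05 was 0 in edgeR's main analysis, under RLE scaling and under a filter of 10 reads per library, 163 with DESeq2, and in the other edgeR fits 61 with no filter, 8 with the replicate block and between 0 and 78 with 1 mouse left out (78 without Smo-KO mouse 1, 5 without control mouse 1 and 4 without Smo-KO mouse 3); the cause was not tested. Smo had an adjusted p of 0.00613 with DESeq2, 0.0385 with no filter and 0.0266 without Smo-KO mouse 1. The mice share only a number: correlations of same-numbered mice's deviations from their group means were between 0.0611 and 0.187 and those of other pairs between -0.205 and 0.157, and not every mouse was most like its own number; with the number as a block, 8 members had an unadjusted p under 0.05, the added one being Gbp7 (0.0406). The log2 ratio of the summed GBP level was -0.60, -0.61 without TMM scaling and between -0.79 (without Smo-KO mouse 3) and -0.46 (without control mouse 2). With the longest transcript in place of merged exons, 4 members changed place in the order of levels per length. The IRG count of 7 lower genes was between 5 and 7 with 1 mouse left out, the interferon list's 5 between 5 and 6, the T cell markers' 7 between 6 and 8 and the NK cell markers' 4 between 3 and 4; these were added after seeing the data. With no filter, 10 genes of the lists had an adjusted p under 0.05 (0.0182 to 0.0388 with edgeR), where 61 of all 18284 genes tested did. Among the 10 were Igtp, Tgtp1, Tgtp2, Irgq, Batf2 and Ciita. With DESeq2 14 genes of the lists did, where 163 of all 12977 did. With the replicate block 3 did, Igtp, Tgtp1 and Trem2 (0.0243 to 0.0457 with edgeR), where 8 of all 12977 did. Ifng, with at most 6 reads in a library, lies at the limit of this depth.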

Other observations

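Markers of the other liver cell types were counted in the same way. Of 5 B cell markers tested, 0 had an unadjusted p under 0.05 in edgeR's test, and the smallest p-values belonged to Pax5 (log2 fold change 0.23, SE 0.34) and Cd79b (0.17, SE 0.26). Of 8 dendritic cell markers 1 was lower, Ccr7 (-0.63, SE 0.23), a homing receptor also made by T cells, followed by Xcr1 (-0.64, SE 0.38). Neutrophil markers were scarce: Ly6g was at 0 in all 8 libraries, 3 of 7 markers were tested, and Csf3r (0.22, SE 0.17) and S100a9 (-0.14, SE 0.23) did not differ beyond the spread between livers. Of 8 sinusoidal endothelial markers 1 was lower, Pecam1 (-0.50, SE 0.20), followed by Cdh5 (-0.36, SE 0.20), and the summed level was between 136 (mouse 2) and 284 CPM (mouse 1) in Smo-KO livers, on both sides of the 214 to 264 CPM of the controls. Of 8 stellate cell markers Col1a1 was lower (-0.36, SE 0.13) and Hand2 higher (0.31, SE 0.12). Of 5 cholangiocyte markers tested 0 had an unadjusted p under 0.05, with Epcam (0.42, SE 0.25) and Spp1 (0.29, SE 0.22) first. No adjusted p was under 0.05 in edgeR's test, where 7.15% of all genes were lower and 6.70% higher at an unadjusted p under 0.05.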
